A study of Mus musculus with 16 samples.

Results

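The 45 genes described here encode the contractile apparatus and calcium handling machinery of adult skeletal muscle. They were taken by name from a count table of 52997 mouse genes, and all 45 had a row in it. By role they comprised 10 thick filament genes, 11 thin filament genes, 11 genes of the Z-disc, M-band and cytoskeleton, 3 stress-responsive Z-disc genes, 2 genes of energy and oxygen supply and 8 calcium genes. Messenger RNA was sequenced from whole skeletal muscle after injury with cardiotoxin, a snake venom toxin that kills muscle fibres, and from sorted regulatory T cells (Tregs), T cells that express Foxp3 and dampen immunity. The main comparison set whole muscle of mice with a transgenic T cell receptor against muscle of mice without it.

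Whole muscle came from mTreg24 TCR-tg+ mice, which carry a transgenic T cell receptor (Tg, 3 libraries), and from mTreg24 TCR-tg- mice, which lack it (WT, 3 libraries), 8 days after injury. Tregs were sorted from Foxp3 GFP+ animals of the same genotypes as Tg muscle Tregs, WT muscle Tregs, Tg spleen Tregs of injured mice, Tg spleen Tregs of uninjured mice and WT spleen Tregs, with 2 libraries each, 3 days after injury where the mice were injured. Tg Tregs were sorted as Vβ8+ cells and WT Tregs as total Tregs, so the sort gate moved with the genotype. All mice were on the B6 background and 6 to 8 weeks old. All 6 whole muscle libraries came from injured muscle, so the levels have no uninjured muscle beside them. The labels do not name the muscle taken, the region of it, the promoter of the transgene, or whether a library came from 1 animal or a pool. The p-values therefore measure the spread between these libraries, which may be technical.

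The whole muscle libraries held 5095999 to 7075420 counts and the Treg libraries 1986700 to 9116800. Skeletal muscle was plain in every whole muscle library, because the 45 genes held 30.2% to 33.4% of counts in the Tg libraries and 31.5% to 32.6% in the WT libraries. In 1 ranking over the 6 libraries together, 10 of the 20 most abundant genes and 28 of the 100 most abundant were among the 45. The transgene check also went with the labels: Trac, the T cell receptor alpha constant gene, had 74.1, 73.0 and 52.4 CPM (counts scaled to library depth) in Tg muscle, against 0.61, 0 and 0.20 CPM in WT muscle. Foxp3 was near the detection limit in whole muscle, at 0, 1.57 and 0 CPM in Tg and 0.61, 0 and 0 CPM in WT.

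A sarcomere is the repeating contractile unit of a muscle fibre. Thick filaments of myosin pull on thin filaments of actin when calcium, released from the sarcoplasmic reticulum through the ryanodine receptor, binds troponin and shifts tropomyosin off the myosin binding sites. Z-discs anchor the thin filaments, M-bands tie the thick filaments together, and calcium pumps refill the reticulum so that the fibre relaxes. Most of these proteins exist as fast and slow isoforms from separate genes, and a fibre's speed follows the set that it expresses. After cardiotoxin, new fibres first make embryonic and neonatal myosin and later replace them with the adult forms.

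The upstream sequences of 4 genes named in the results are shown as background, and their link to the levels was not tested. Acta1 was the most abundant of the 45, Myh4 was the leading adult myosin, and Myh7 and Tnnc1 belong to a group of slow genes that varied strongly between libraries. Each line gives the 250 bases before a RefSeq start (GRCm38.p6), 5′ to 3′. Capitals mark matches on either strand to the MCAT element CATTCC, the TATA box letters TATAAA, the CArG box and the MEF2 element. Positions are counted back from this RefSeq start. For Acta1 and Myh4 it is not the gene start of the GENCODE M21 annotation given below (123894751 and 67238029). The Acta1 sequence is chr8:123894776-123895025, minus strand. The Myh4 sequence is chr11:67237562-67237811, plus strand. The Myh7 sequence is chr14:54994627-54994876, minus strand, before the first of 2 listed starts. The Tnnc1 sequence is chr14:31208062-31208311, plus strand.
Acta1: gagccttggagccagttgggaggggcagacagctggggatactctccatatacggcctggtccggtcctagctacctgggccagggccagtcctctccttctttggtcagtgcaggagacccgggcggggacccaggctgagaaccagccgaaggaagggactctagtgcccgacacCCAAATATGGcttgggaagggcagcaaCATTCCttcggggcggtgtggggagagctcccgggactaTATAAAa
Myh4: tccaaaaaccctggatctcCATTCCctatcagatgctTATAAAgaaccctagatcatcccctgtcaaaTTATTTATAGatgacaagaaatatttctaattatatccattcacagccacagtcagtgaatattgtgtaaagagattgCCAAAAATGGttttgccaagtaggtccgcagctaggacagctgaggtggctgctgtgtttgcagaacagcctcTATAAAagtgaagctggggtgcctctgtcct
Myh7: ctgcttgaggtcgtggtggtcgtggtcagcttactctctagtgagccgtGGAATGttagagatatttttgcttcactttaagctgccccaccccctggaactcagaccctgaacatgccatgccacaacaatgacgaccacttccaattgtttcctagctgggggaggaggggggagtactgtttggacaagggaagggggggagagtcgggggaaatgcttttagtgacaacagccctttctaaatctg
Tnnc1: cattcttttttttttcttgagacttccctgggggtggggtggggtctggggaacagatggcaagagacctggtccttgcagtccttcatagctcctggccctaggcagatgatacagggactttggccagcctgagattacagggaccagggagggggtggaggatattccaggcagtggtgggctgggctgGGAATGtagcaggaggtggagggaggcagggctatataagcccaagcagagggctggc

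In Acta1 the capitals are a CArG box at -73 to -64, an MCAT element at -46 to -41 and a TATA box at -7 to -2. In Myh4 they are an MCAT element at -231 to -226, TATA boxes at -213, -179 and -31, a MEF2 element at -182 to -173 that overlaps the middle TATA box, and a CArG box at -104 to -95. Of the elements marked by capitals, Myh7 and Tnnc1 each held only an MCAT element, at -201 to -196 and at -58 to -53. E-boxes (CANNTG) were not marked, and each of these 2 sequences held 2 of them. Only the exact letters TATAAA were searched. Similar letters, such as tatataag near the end of the Tnnc1 line, were therefore not marked. Over the longer window of 250 bases before to 50 after the start, 34 of the 45 genes were in the RefSeq promoter table used here, with 44 starts. The CArG box was in 15.9% of these 44 windows, against 1.63% of all 32851 windows in the table, and the MEF2 element in 13.6% against 3.19%. The MCAT element was in 25% against 14.7%, TATAAA in 18.2% against 13.6%, and the E-box CANNTG, the site of myogenic regulators such as MyoD, in 84.1% against 72.3%. By fibre type, a CArG box was in 1 of 11 fast and 1 of 15 slow windows, an MCAT element in 4 of 11 and 3 of 15, and a MEF2 element in 3 of 11 and 2 of 15. TATAAA was in 4 of 11 fast and 2 of 15 slow windows, and an E-box in 8 of 11 and 15 of 15. A match describes the letters and does not show that a factor binds there.

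As a whole, the 45 genes differed in their share of all counts by less than the spread between libraries. They held 30.2%, 33.4% and 33.1% of all counts in the Tg libraries, against 32.3%, 31.5% and 32.6% in the WT libraries. The mean share was 32.2% ± 1.78 in Tg and 32.1% ± 0.564 in WT (SD, n = 3 each), a difference of 0.0754 percentage points in a two-sided exact permutation test (p = 1, where 3 against 3 libraries cannot give less than 0.1). Without the 5 most abundant genes (Acta1, Atp2a1, Ckm, Tpm1 and Myh4) the share was 13.4% in Tg and 13.3% in WT (exact permutation p = 0.7). The difference changed sign when single libraries were left out, with values between -0.52 and 1.10 percentage points.

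Gene by gene, 0 of the 45 passed the test between Tg and WT muscle. All 45 passed the filter on low counts and entered an edgeR quasi-likelihood test over 12377 genes with Benjamini-Hochberg adjustment, in which 0.0323% of all genes were called at an adjusted p under 0.05. The 4 called genes were T cell receptor genes, all higher in Tg. DESeq2 and limma-voom also called 0 of the 45. The smallest adjusted p among the 45 was 0.990 by edgeR, for Csrp3. At an unadjusted p under 0.05 there were 3 of the 45 (Csrp3, Myot and Xirp1), all lower in Tg, against 2.17% of all genes lower at that level. Library values did not overlap between genotypes for 2 of the 45 (Csrp3 and Myot), both lower in Tg, against 4.66% of all genes lower without overlap.

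The fitted log2 fold changes were small and leaned below 0. Of the 45, 35 had a negative log2 value and 10 a positive one, with a median of -0.06, a minimum of -0.34 (Xirp1) and a maximum of 0.16 (Pvalb). Over all 12377 genes the median was 0.00 and 50.6% were negative. The median depended on Tg replicate 1, and without it the median of the 45 was 0.03. In that library 38 of the 45 genes had their lowest Tg level, and 22 had their highest WT level in WT replicate 1. Single genes differed in this. Over 16 alternative analyses Csrp3, Xirp1 and Myot stayed negative, with highest values of -0.25, -0.22 and -0.14. By contrast, 30 of 48 genes (the 45 with Ttn, Myh3 and Myh8) changed sign in at least 1. Macrophage and fibroblast markers were highest in Tg replicate 1 and lowest in WT replicate 1. Summed macrophage markers made up 0.236%, 0.213% and 0.187% of counts in Tg, against 0.0593%, 0.189% and 0.134% in WT. Fibroblast markers made up 0.681%, 0.479% and 0.445% in Tg, against 0.2498%, 0.528% and 0.429% in WT. Of 16 macrophage genes 15 had a positive log2 value, with a median of 0.60 and 0 called, and of 10 fibroblast genes 8, with a median of 0.38 and 0 called. All of these markers passed the filter on low counts, and their part in the lean was not tested. In whole tissue, fewer fibres and less RNA per fibre cannot be told apart.

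**Figure D1:**
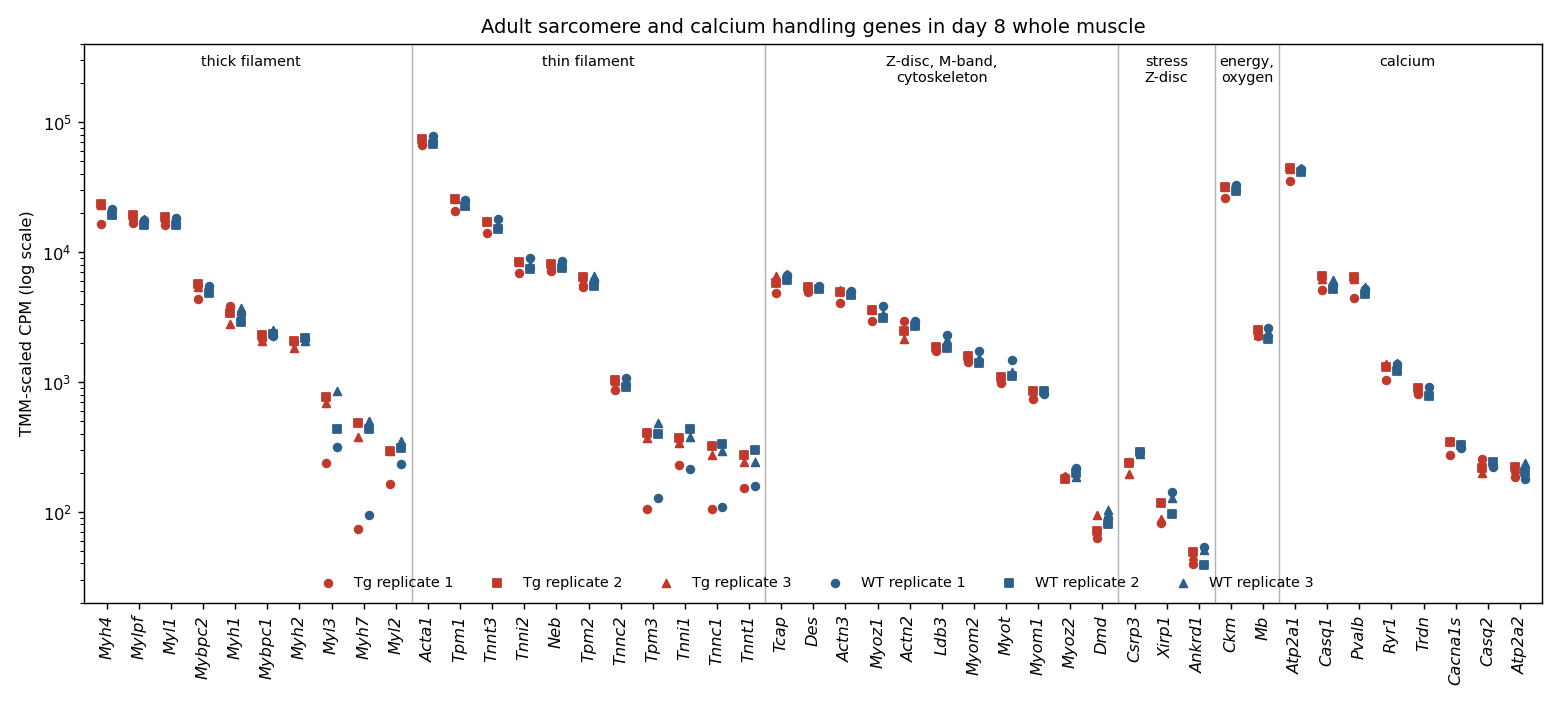
Levels of the 45 genes in the 6 whole muscle libraries, grouped by role; the y axis is TMM-scaled CPM on a log scale, with Tg libraries in red left of WT libraries in blue and a marker shape per replicate number. Most genes form tight clusters of 6 points, from Acta1 near the top (66165 to 77664) to Ankrd1 near the bottom (38.9 to 54.0), whereas Myh7, Tpm3, Myl3 and Tnnc1 each have 1 low Tg and 1 low WT point.

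The spread between libraries set how firmly a lack of difference can be read. For 37 of the 45 genes the 95% interval of the fold change lay within 1.5-fold in either direction, and for 41 within 2-fold. Of the 8 genes with wider intervals, 7 were slow genes and the other was Xirp1. The interval was 0.852 to 1.10 for Acta1 but 0.144 to 5.69 for Myh7, so a several-fold change of Myh7 was not detectable here.

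**Figure D2:**
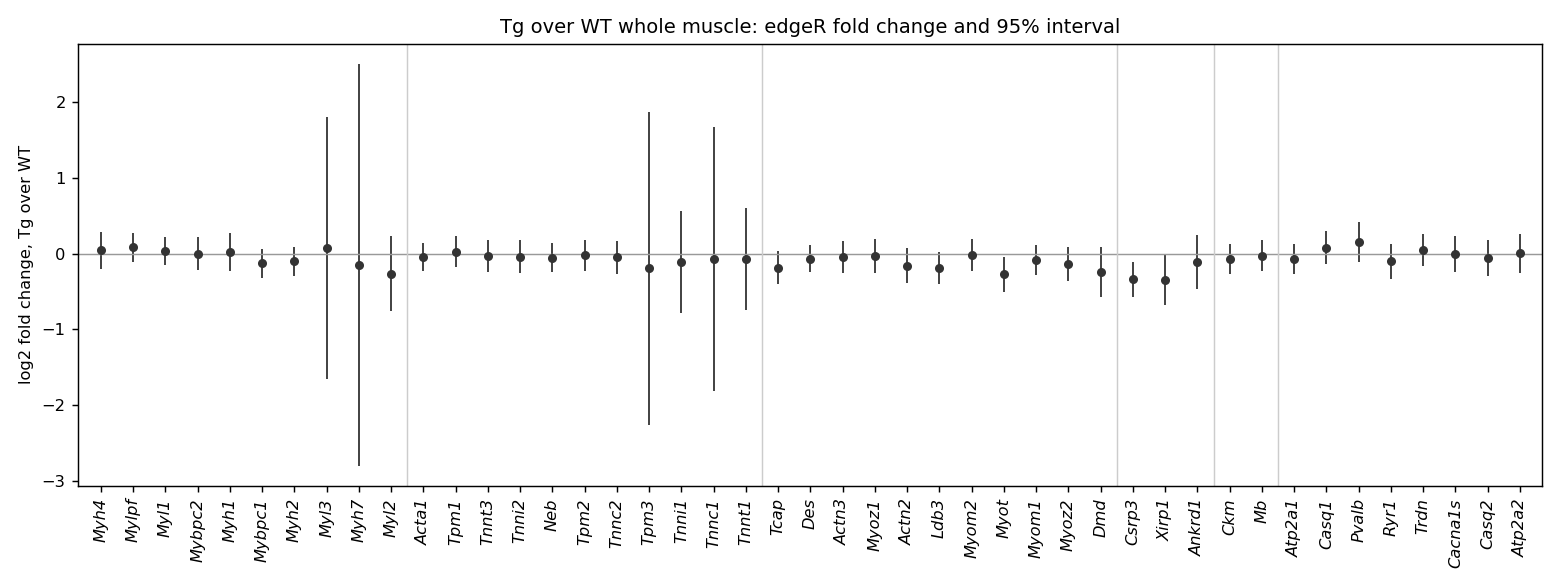
Fitted log2 fold change of each of the 45 genes, Tg over WT whole muscle (points), with its 95% interval (lines), from 3 libraries per genotype; vertical lines separate the roles. The points lie between -0.34 and 0.16, and the widest intervals belong to Myh7, Tpm3, Tnnc1 and Myl3.

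Among thick filament genes, the fast myosins dominated in both genotypes. Levels are CPM scaled by TMM (edgeR's correction for library composition), in the order of replicates 1, 2 and 3. Gene coordinates are those of GENCODE M21 on the build mm10. Myh4, the heavy chain of the fastest (IIb) fibres (chromosome 11, 67238029 to 67260446), was at 16371, 23275 and 22872 in Tg and at 21456, 19389 and 19695 in WT. The Tg values enclosed all WT values, and the log2 fold change was 0.05 ± 0.12 (SE; adjusted p = 0.994 by edgeR). Myh1, the heavy chain of IIx fibres, was at 3844, 3406 and 2796 in Tg and at 3335, 2898 and 3682 in WT. Myh2, the heavy chain of IIa fibres, was at 2025, 2072 and 1841 in Tg and at 2130.4, 2173 and 2059 in WT. Both pairs of groups overlapped, with log2 values of 0.02 ± 0.12 and -0.10 ± 0.09 (SE). Myh1, Myh2 and Myh4 lie side by side on chromosome 11 with closely similar coding sequence, so reads of 25 bases may have been shared between them.

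Per length of exon, Myh4 supplied most adult myosin transcripts. It made up 74.1%, 80.6% and 82.9% of the summed Myh1, Myh2, Myh3, Myh4, Myh7 and Myh8 signal in Tg, against 80.4%, 78.7% and 77.1% in WT. The means were 79.2% ± 4.53 in Tg and 78.8% ± 1.65 in WT (SD, n = 3 each; exact permutation p = 0.9). Myh1 averaged 12.4% in Tg and 12.2% in WT, and Myh2 6.47% and 6.99%. Myh3, the embryonic heavy chain, was 0.875% ± 0.144 in Tg and 0.878% ± 0.370 in WT, and Myh8, the neonatal heavy chain, 0.274% ± 0.106 in Tg and 0.203% ± 0.0336 in WT. On day 8 the adult forms held nearly all myosin signal in both genotypes.

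The light chains and binding proteins of the fast thick filament varied little. Myl1 and Mylpf, the essential and regulatory light chains of fast fibres, spanned 16214 to 18574 and 16022 to 19400.1 over the 6 libraries. Their log2 values were 0.04 ± 0.09 and 0.09 ± 0.09 (SE). Mybpc2 and Mybpc1, the fast and slow myosin binding proteins C, had log2 values of 0.00 ± 0.10 and -0.13 ± 0.09 (SE). Over the 10 thick filament genes the median was 0.01, with 5 positive and 5 negative.

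The slow myosin genes varied far more between libraries of 1 genotype than the fast ones. Myh7, the heavy chain of slow and cardiac fibres (chromosome 14, 54970684 to 54994626), was at 73.7, 479 and 377 in Tg and at 94.3, 432 and 504 in WT. It was low in 1 library of each genotype, and the highest library was 6.84 times the lowest. Myl3, the slow and ventricular essential light chain, was at 237, 759 and 689 in Tg and at 313, 436 and 858 in WT, a ratio of 3.62. Myl2, the slow regulatory light chain, was at 165, 292 and 293 in Tg and at 235, 313 and 354 in WT, a ratio of 2.15. For each of these genes the lowest Tg and the lowest WT library was replicate 1, while Myh4 was lowest in replicate 1 of Tg but highest in replicate 1 of WT.

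Slow thin filament genes showed the same library pattern. Tnnc1, the slow and cardiac troponin C that binds calcium (chromosome 14, 31208312 to 31211729), was at 104, 323 and 273 in Tg and at 109.7, 333 and 295 in WT. Tpm3, which includes slow tropomyosin, was at 105, 402 and 372 in Tg and at 129, 396 and 482 in WT. Tnnt1, the slow troponin T that ties the complex to tropomyosin, was at 152, 274 and 241 in Tg and at 157, 299 and 242 in WT. Each was low in replicate 1 of both genotypes and similar in the other libraries. Tnni1, the slow inhibitory troponin I, was at 231, 372 and 339.8 in Tg and at 212, 432 and 375 in WT. The ratio of the highest to the lowest library was 4.60 for Tpm3, 3.19 for Tnnc1, 2.03 for Tnni1 and 1.97 for Tnnt1.

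These 7 slow genes (Myh7, Myl2, Myl3, Tnnt1, Tnni1, Tnnc1 and Tpm3) were grouped after their values were seen, so their pattern is a description with no test. Summed, they held between 0.113% and 0.284% of counts in Tg and between 0.118% and 0.305% in WT. The other 38 genes had a highest library between 1.12 and 1.71 times the lowest. That range included 5 genes classed as slow or cardiac type: Actn2, Mybpc1, Myoz2, Atp2a2 and Casq2, with ratios between 1.22 and 1.39. Macrophage markers did not follow the slow genes, being highest in replicate 1 of Tg and lowest in replicate 1 of WT. Between genotypes, the 7 genes had log2 values from -0.26 (Myl2) to 0.07 (Myl3), and the smallest adjusted p was 0.994.

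**Figure D3:**
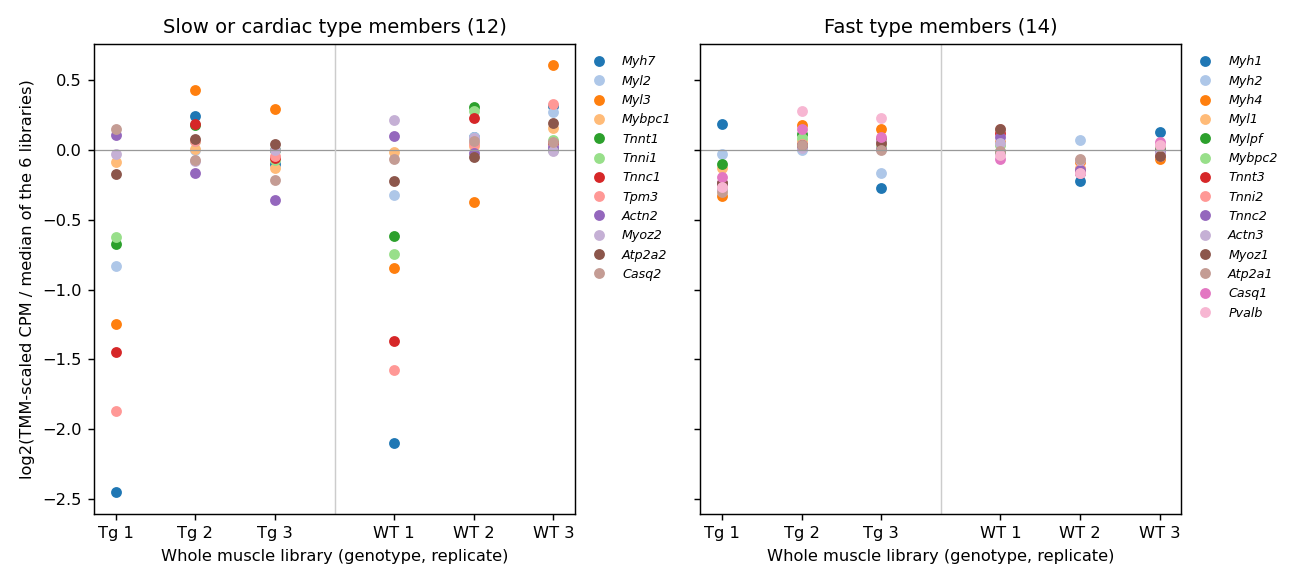
Level of each slow or cardiac type gene (left, 12 genes) and each fast gene (right, 14 genes) in every whole muscle library, as log2 of its TMM-scaled CPM over its median in the 6 libraries; 1 colour per gene. In the left panel 7 genes have their lowest points in Tg 1 and WT 1, most of them far below the others, with Myh7 lowest. Myl2 in WT 1 is an exception, at 235 against a median of 293. The fast genes lie nearer to the line at 0, although Myh4 in Tg 1, at 16371 against a median of 20575, deviates about as much as Myl2 in WT 1.

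Shares within families do not depend on the scaling of a library. Those of Myh7, Tnnt1, Tnni1, Tnnc1 and Tpm3, which were grouped for this pattern, were lowest in replicate 1 of both genotypes. Tnnc1 made up 8.51%, 19.4% and 17.1% of troponin C signal per exon length in Tg, against 7.23%, 21.8% and 18.4% in WT. Myh7 made up 0.233%, 1.16% and 0.953% of myosin signal in Tg, against 0.247%, 1.22% and 1.38% in WT. In both families the Tg and WT values overlapped. The other 5 isoforms classed as slow or cardiac type went the other way in Tg, where replicate 1 had their highest share. Actn2 is among them although all fibre types use it, so its share does not measure slow fibres alone. Actn2 made up 36.0%, 27.5% and 24.3% of alpha actinin signal in Tg, against 30.7%, 30.8% and 30.6% in WT, and Mybpc1 28.0%, 24.5% and 23.5% in Tg, against 24.9%, 27.8% and 28.0% in WT. Replicate 1 of Tg also had the highest Tg share of Myoz2 (3.35%), Casq2 (3.43%) and Atp2a2 (0.298%). Over 20 shares tested, 0 separated the genotypes. The smallest exact permutation p was 0.4 (0.947 after Benjamini-Hochberg adjustment), in a design that cannot give less than 0.1.

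**Figure D4:**
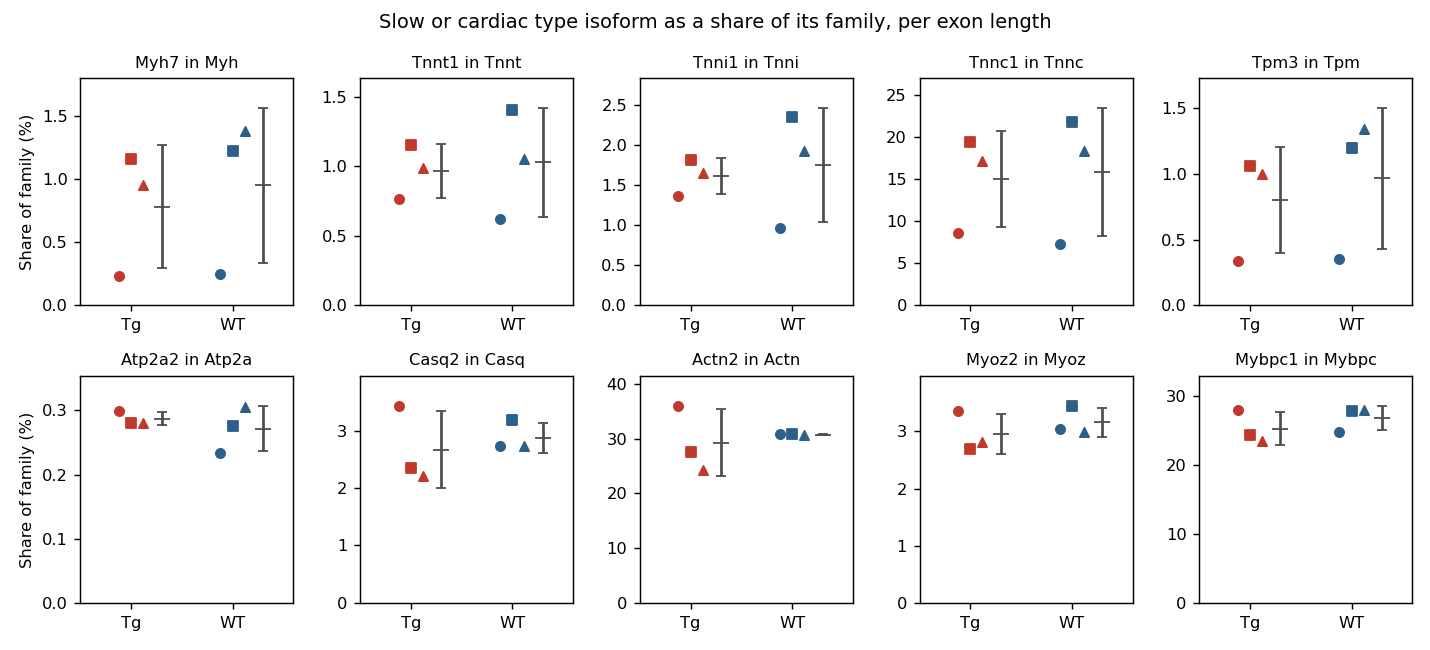
Share of the isoform classed as slow or cardiac type within its gene family (percent, per exon length), 1 panel per family, in Tg libraries (red, left) and WT libraries (blue, right). The marker shape gives the replicate number and the bar the mean ± SD of 3 libraries. Actn2 is classed here although all fibre types use it. In the upper row replicate 1 (circles) is lowest in both genotypes, as for Tnnc1 at 8.51% in Tg and 7.23% in WT, and in the lower row it is not lowest in both.

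Fast isoforms took nearly all of the troponin T and troponin I signal. Tnnt3, the fast troponin T, was at 14079, 16903 and 17409 in Tg and at 18046, 15058 and 16278 in WT, and slow Tnnt1 made up 0.967% of the troponin T signal in Tg and 1.03% in WT. Slow Tnni1 made up 1.61% of troponin I signal in Tg and 1.75% in WT. Per exon length, Tpm1 held 64.1% of tropomyosin signal in Tg and 63.3% in WT, with most of the rest from Tpm2. From counts alone its share was 79.5% in Tg and 78.8% in WT. In these families the shares of the genotypes overlapped.

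Actin and nebulin anchor the thin filament list. Acta1, skeletal muscle alpha actin (chromosome 8, 123891769 to 123894751), was the most abundant gene of the whole table, at 66165, 74779 and 73169.9 in Tg and at 77664, 67952 and 75605 in WT. The groups overlapped, with a log2 value of -0.05 ± 0.09 (SE; adjusted p = 0.994 by edgeR). Per kilobase of exon its median was 48160.4, ahead of Mylpf (16854), Atp2a1 (12493), Ckm (10799.7) and Tnnt3 (10480.4). Neb, which encodes nebulin, the giant protein along the thin filament (chromosome 2, 52136647 to 52378474), was at 7096, 8079 and 8039 in Tg and at 8524, 7529.6 and 8029 in WT. Over the 11 thin filament genes the median log2 value was -0.05, with 10 negative and 1 positive.

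All 11 genes of the Z-disc, M-band and cytoskeleton had a negative log2 value, with a median of -0.14 and 0 called. Myot, which encodes the Z-disc protein myotilin, had the most negative value of them, at 983, 1097 and 1058 in Tg and 1482, 1114 and 1188 in WT. All Tg libraries lay below all WT libraries, with a log2 value of -0.27 ± 0.11 (SE; adjusted p = 0.994 by edgeR, unadjusted p = 0.0254). Ldb3, which encodes the Z-disc protein ZASP, was at 1719, 1869 and 1835 in Tg and at 2289, 1812 and 2094 in WT. For both genes WT replicate 1 was the highest of the 6 libraries. Tcap, the titin cap, was at 4858, 5813 and 6491 in Tg and at 6641, 6107 and 6726 in WT, with overlap.

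The remaining structural genes overlapped between genotypes. Des, the intermediate filament protein desmin that links Z-discs, was at 4893, 5335 and 5165 in Tg and at 5481, 5229 and 5416 in WT (log2 value -0.07 ± 0.08). Dmd, which encodes dystrophin and joins the cytoskeleton to the membrane (chromosome X, 82948870 to 85206141), was at 63.3, 71.4 and 94.7 in Tg and at 88.9, 80.9 and 103 in WT. Its log2 value was -0.25 ± 0.16 (SE; adjusted p = 0.994 by edgeR), and per kilobase of exon it was the lowest of the 45. Actn3, the fast alpha actinin, made up 70.7% ± 6.06 of the Actn2 and Actn3 signal in Tg and 69.3% ± 0.0883 in WT (SD, n = 3 each). Actn2, the form that all fibre types use, was at 2956, 2448 and 2133 in Tg and at 2933, 2699.6 and 2777 in WT. Myom2 and Myom1, the M-band myomesins, had log2 values of -0.01 and -0.08, and Myoz1 and Myoz2, which bind calcineurin at the Z-disc, of -0.03 and -0.14.

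The 3 stress-responsive Z-disc genes are genes whose transcripts are known to respond to load or injury, and they had the lowest median of any role, -0.34. Csrp3, the muscle LIM protein (chromosome 7, 48830398 to 48848033), was at 242, 237 and 195 in Tg and at 287, 287 and 277 in WT. Every Tg library lay below every WT library, and the log2 value was -0.34 ± 0.11 (SE; fold 0.791, 95% interval 0.674 to 0.928). The unadjusted p was 0.00678 and the edgeR adjusted p 0.990, so it did not pass. Xirp1, an actin-binding protein of cell junctions, was at 82.5, 117 and 88.7 in Tg and at 141, 97.0 and 128 in WT, with overlap (log2 value -0.34 ± 0.16). Ankrd1, an ankyrin repeat protein that shuttles between sarcomere and nucleus, was at 39.3, 48.6 and 45.5 in Tg and at 54.0, 38.9 and 51.2 in WT, with overlap (log2 value -0.11 ± 0.17).

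Energy and oxygen genes overlapped between genotypes. Ckm, the muscle creatine kinase that regenerates ATP (chromosome 7, 19404776 to 19422841), was at 26301, 31717 and 31455 in Tg and at 32982, 29265 and 31464 in WT (log2 value -0.07 ± 0.09, SE). Mb, which encodes the oxygen store myoglobin, was at 2256, 2522 and 2288 in Tg and at 2607, 2151 and 2429.9 in WT. In both, Tg replicate 1 was the lowest Tg library and WT replicate 1 the highest WT library.

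Calcium genes had a median log2 value of 0.00, with 4 positive and 4 negative. Ryr1, the calcium release channel of the reticulum (chromosome 7, 29003344 to 29125179), was at 1029.8, 1294 and 1383 in Tg and at 1362, 1221 and 1388 in WT. Cacna1s, the voltage sensor that opens it, was at 272, 344 and 352 in Tg and at 309, 328 and 334 in WT. Trdn, which encodes triadin of the same complex, was at 800.3, 897 and 874 in Tg and at 912, 772 and 801 in WT. For each gene the genotypes overlapped, with log2 values of -0.10, 0.00 and 0.05.

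Genes of calcium storage and removal overlapped between genotypes as well. Atp2a1, the fast calcium pump SERCA1 (chromosome 7, 126445858 to 126463108), was at 35342, 44578 and 43543 in Tg and at 43336, 41638 and 44443 in WT (log2 value -0.07 ± 0.09, SE). It held 99.7% of Atp2a1 and Atp2a2 signal in both genotypes. Casq1, the calcium store protein calsequestrin of fast fibres, was at 5117, 6503 and 6250.0 in Tg and at 5596, 5211 and 6090.3 in WT, and held 97.3% of calsequestrin signal in Tg and 97.1% in WT. Pvalb, the soluble calcium buffer parvalbumin of fast fibres, had the most positive value of the 45. It was at 4414, 6437 and 6197 in Tg and at 5164, 4722 and 5424 in WT, with a log2 value of 0.16 ± 0.12 (SE; adjusted p = 0.994 by edgeR) and a 95% interval of 0.931 to 1.33 for the fold. Slow-type Atp2a2 and Casq2 had log2 values of 0.01 and -0.06.

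Among 87 other genes of the same structures, 0 passed, 59 had a negative log2 value and the median was -0.08. The lists comprised 47 sarcomere and assembly genes (13 positive and 34 negative, median -0.12), 30 calcium and triad genes (12 and 18, median -0.03) and 10 dystrophin complex genes (3 and 7, median -0.12). At an unadjusted p under 0.05 there were 9 lower and 2 higher in Tg, against 2.17% of all genes lower and 2.67% higher. The lower ones included the small heat shock genes Hspb7 (-0.39), Hspb1 (-0.41) and Cryab (-0.32), which guard sarcomere proteins, and the Z-disc filamin Flnc (-0.29). Hspb7 was at 237, 249 and 200.3 in Tg and at 344, 259 and 297 in WT, without overlap. Cryab was at 536, 549 and 499.8 in Tg and at 801, 574 and 608 in WT, also without overlap. Hspb1 was at 126, 144 and 117 in Tg and at 203, 138 and 175 in WT, with overlap. For each of these heat shock genes WT replicate 1 was the highest of the 6 libraries. The higher ones were Myl4, the embryonic light chain (0.51), and Myh8 (0.42).

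Ttn, which encodes the giant elastic protein titin, was at 18516, 21969 and 23850.4 in Tg and at 23088, 21183 and 23613 in WT (log2 value -0.08 ± 0.10, SE). Myh3 was at 231, 240.5 and 211 in Tg and at 151, 319 and 203 in WT (0.02 ± 0.22), and Myh8 at 171, 118 and 117 in Tg and at 88.6, 98.1 and 118 in WT (0.42 ± 0.16). All 3 overlapped between genotypes. Summed, the 8 regenerating fibre markers were 0.375%, 0.438% and 0.449% of counts in Tg, against 0.252%, 0.295% and 0.403% in WT. Most of this sum was Actc1. By library totals the 8 markers held 3747 to 4493 CPM in Tg and 2515 to 4032 CPM in WT. Actc1 alone had 3008, 3786 and 3891 CPM in Tg, against 2124, 2253 and 3526 CPM in WT. Taken singly, 8 of 8 had a positive log2 value (median 0.30) with 0 called. The 12 mature fibre metabolism genes were 4.68% to 4.85% of counts in Tg and 4.71% to 5.31% in WT, with 11 negative, a median of -0.10 and 0 called.

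Sorted Tregs served as a check of whether fibre RNA was carried into the sorts. The defining fibre genes were at or near 0 there. Acta1 had 2 and 0 counts in the Tg muscle Treg libraries, 0 and 2 in WT muscle Tregs, and 0 in all 6 spleen Treg libraries. Of the 45 genes, 6 (Myl3, Tnnc2, Myom2, Myot, Mb and Cacna1s) had 0 counts in all 10 Treg libraries, and 33 had at most 10 counts in any of them. A count of 0 allows up to 3 counts, which is 0.329 to 1.51 CPM depending on the library. Foxp3 was between 1054.5 and 2314 CPM in the same libraries.

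Only 11 of the 45 passed the filter on low counts in Tregs (Actn2, Actn3, Neb, Mylpf, Tnnt1, Tnnt3, Tpm1, Tpm3, Atp2a1, Atp2a2 and Dmd). Tpm3 was the most abundant. Its level was 656 and 641 in the Tg muscle libraries, 727 and 686 in the WT muscle libraries and 577 to 660.1 in the spleen libraries, above that of any whole muscle library. Besides the slow muscle form, Tpm3 encodes tropomyosins that many cell types use, and Atp2a2 encodes a calcium pump found in most cells. With Neb, Tpm3, Atp2a2, Tpm1 and Actn2 left out, a choice made after seeing the values, the other 40 genes summed to 20.7 to 28.2 CPM in muscle Tregs and 26.2 to 34.2 CPM in spleen Tregs. These sums are 0.00722% to 0.0119% of the level in whole muscle.

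Neb was higher in muscle Tregs than in spleen Tregs of both genotypes, and Atp2a2 passed the test in WT. Neb was at 449 and 440.5 in the Tg muscle libraries and at 309 and 267 in the WT muscle libraries, against 193 and 135 in Tg spleen after injury, 223 and 203 in uninjured Tg spleen, and 108 and 99.2 in WT spleen. In the 10-library edgeR fit Neb rose by 1.48 ± 0.17 on the log2 scale in WT muscle over WT spleen (SE; adjusted p = 3.57e-05) and by 1.44 ± 0.17 in Tg muscle over injured Tg spleen (adjusted p = 5.58e-05). Muscle and spleen libraries did not overlap in either genotype. Of the 11 tested, 2 were higher and 0 lower in WT muscle, where 9.38% of all 13188 genes were called higher, and 1 was higher and 0 lower in Tg muscle, where 4.83% were called higher.

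Atp2a2 was at 66.6 and 54.9 in Tg muscle and at 82.7 and 77.3 in WT muscle Tregs, against 38.98 and 41.5 in injured Tg spleen, 44.7 and 56.4 in uninjured Tg spleen and 35.6 and 42.2 in WT spleen. It rose by 1.03 ± 0.21 in WT muscle over WT spleen (SE; edgeR adjusted p = 0.00446), and its value in Tg muscle over injured Tg spleen was 0.59 ± 0.21 (adjusted p = 0.119). A test of the difference between the tissue effects passed for 0 of the 11 genes, with a value, Tg minus WT, of -0.04 for Neb (edgeR adjusted p = 0.984) and -0.44 for Atp2a2 (adjusted p = 0.789). At an unadjusted p under 0.05 there was 1, Actn3. Over all genes 0.136% passed that test and 7.93% were at an unadjusted p under 0.05. Within muscle, Tg against WT Tregs, edgeR called 0 of the 11, where 0.318% of all genes were called. DESeq2 and limma-voom also called 0, and at an unadjusted p under 0.05 there were 3 (Neb, Actn2 and Atp2a1), all higher in Tg, against 4.75% of all genes higher at that level. Neb had a log2 value of 0.63 ± 0.16 there (SE; edgeR adjusted p = 0.164), and an adjusted p of 0.0351 without the filter on low counts. Of 16 sarcomere and assembly genes outside the 45 that were tested there, 1 was called higher in Tg and 0 lower. Among these genes, Ttn was at 164 and 125 in Tg muscle Tregs and at 33.4 and 26.4 in WT muscle Tregs. In spleen it was at 232 and 188 in injured Tg, 203 and 253 in uninjured Tg, and 63.9 and 70.5 in WT.

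The Neb counts did not come with the other fibre genes. At the ratio of Neb to Acta1 in whole muscle, the Neb counts would go with 11049 and 16509 counts of Acta1 in Tg muscle Tregs, where 2 and 0 were found. In WT muscle Tregs they would go with 12575 and 20020.2, where 0 and 2 were found. The ratio was taken from day 8 muscle, whereas the Tregs were sorted on day 3. Exons of Neb, Atp2a1 and Atp2a2 overlap exons of genes on the opposite strand in GENCODE M21, by up to 45, 336 and 83 bases, and the libraries do not mark strand, so reads from these stretches cannot be told apart.

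**Figure D5:**
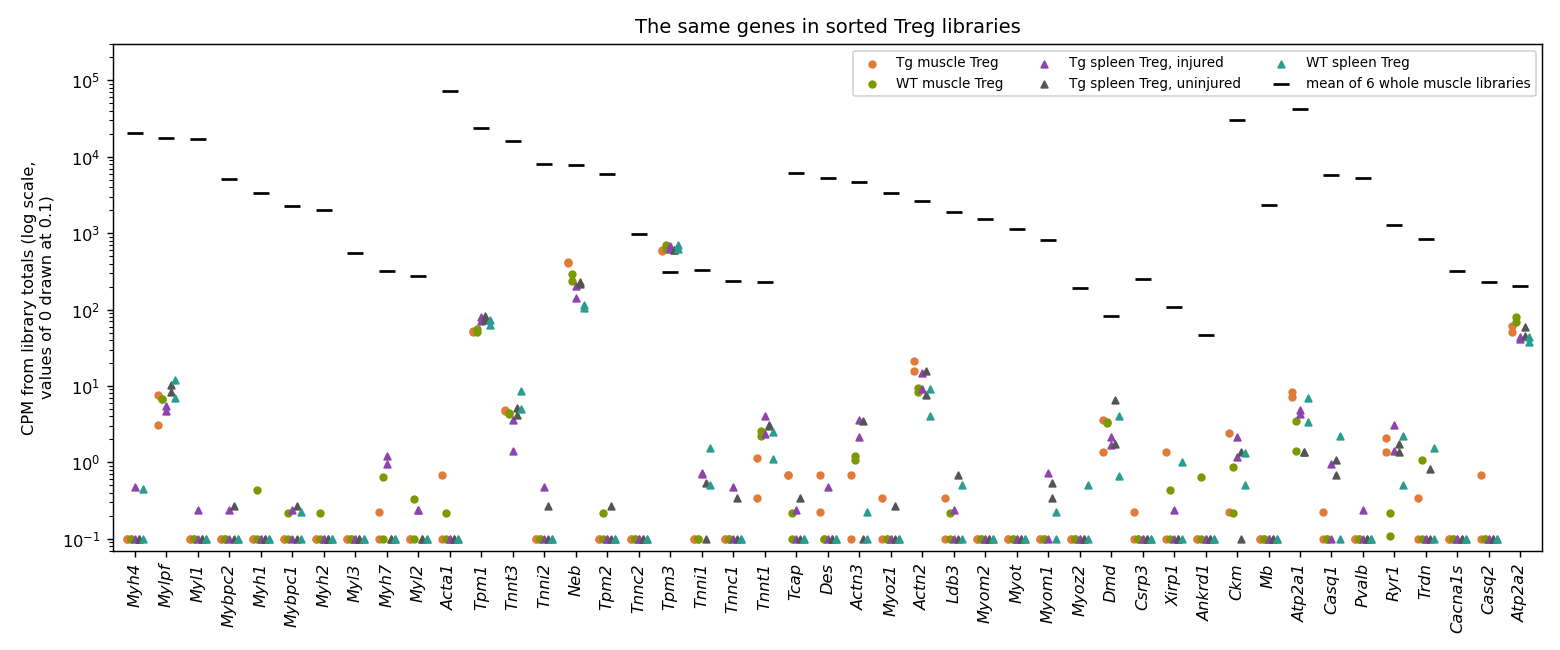
CPM from library totals (log scale, values of 0 drawn at 0.1) of the 45 genes in the 10 Treg libraries (circles for muscle, triangles for spleen, 1 colour per group), with black dashes for the mean of the 6 whole muscle libraries. Most genes lie at the bottom in every Treg library, while Tpm3, Neb, Tpm1 and Atp2a2 stand above the rest and only Tpm3 exceeds its whole muscle dash. Actn2 comes next in most libraries. It lies below Mylpf in replicate 1 of WT spleen (4.03 against 12.1) and of uninjured Tg spleen (7.63 against 10.4).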

How the data were processed

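Messenger RNA was copied from its poly(A) tail, amplified and cut by a transposase, per the labels' protocols, and sequenced in pairs of 25 bases with no strand information. The authors deposited whole-number read counts per gene; per the submitters' processing notes STAR 2.5.4, featureCounts and mm10 were used, and the counting annotation is not given in the sources used here. The deposited counts of the 6 whole muscle libraries were fitted with edgeR 4.0.16 (R 4.3.3): filterByExpr by group, TMM, robust quasi-likelihood, Benjamini-Hochberg over all genes, adjusted p under 0.05. The 10 Treg libraries shared a second fit of 5 groups. SEs were approximated from the test statistic, and 95% intervals follow from them. Levels are TMM-scaled CPM. Isoform shares divide counts by exon length, the union of all exons annotated to a gene in GENCODE M21, which can exceed the transcript in use. They were compared with exact permutation tests (SciPy 1.17.1). Depth ran from 1986700 to 9116800 counts, and count floors cover counting error only. Within groups the chi-square of library pairs per degree of freedom was 5.47 to 28.9, so none was counted as a duplicate. Upstream sequences are RefSeq's. The fits were tested on simulated data. Alternatives were other scalings, filters, DESeq2 1.42.0, limma-voom 3.58.1, a replicate block and leaving out each library. The 45 genes, all lists and the rule for named genes (17 members and 4 others always, plus any called) were chosen with earlier results of these data known. Myl1, Mylpf, Mybpc1, Mybpc2 and others were named outside that rule to cover each role.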

Additional observations from a re-analysis of the deposited data

How the results depend on the processing

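None of the 45 genes was called between Tg and WT whole muscle under any of 16 alternatives. Over these genes with Ttn, Myh3 and Myh8, 768 recomputed values stayed on the same side of the threshold (smallest adjusted p 0.457 by edgeR or the alternative tools), while 71 values in 30 uncalled genes changed sign. The median of the 45 ran from -0.10 to 0.03, the highest value without Tg replicate 1. Over all genes, the count of 4 became 11 without a low-count filter, 2 at a mean of at least 5 CPM and 2 with the replicate block, and 3 to 4 with a library left out. Across all genes, whole muscle libraries of the same replicate number showed no pairing. Same-numbered libraries correlated at -0.026, -0.005 and -0.011, and no library correlated best with its own number. An effect shared by few genes was not tested, and the 7 slow genes were lowest in replicate 1 of both genotypes. In muscle Tregs, Tg against WT, 42 calls became 195 without a filter, where 1 of the 45 genes (Neb, 0.61, adjusted p = 0.0351 by edgeR) passed, 101 with DESeq2 and 25 to 361 with a library left out. With a library left out, the 2143 calls of the WT tissue comparison ran from 887 to 2768 and the 973 of the Tg one from 452 to 640. Neb stayed higher in muscle throughout (1.29 to 1.59 in WT, 1.20 to 1.72 in Tg). Of the 20 isoform shares, 0 to 6 did not overlap when a library was left out, 6 of them without Tg replicate 1. With fewer libraries non-overlap arises more easily, so these counts do not mark a difference between genotypes. Why these values moved was not tested. With 3 libraries per genotype, Myh7, Tpm3, Tnnc1 and Myl3 could differ several-fold unseen.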
